A study of Mus musculus with 7 samples.

Results

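The Bcl2 family of apoptosis regulators was examined in LSK (Lin-Sca1+Kit+) cells of the mouse, the sorted marrow population in which hematopoietic stem cells and early progenitors are found. The genes were taken by symbol from the deposited count table and comprised 3 survival members (Bcl2, Bcl2l1 and Mcl1) and 7 death members (Bax, Bak1, Bid, Bad, Bcl2l11, Bmf and Bik). All 10 were among the 24421 gene symbols of the table, and all 10 had enough counts to be tested. The relatives Bbc3 and Pmaip1 were not part of this group and are given with the other family genes further on. BoyJ mice were lethally irradiated and reconstituted with donor marrow that carried RosaCreERT2, a ubiquitously expressed recombinase activated by tamoxifen, and either a floxed Ddx41 allele beside a wild-type allele (Ddx41+/-, 3 mice, replicates 6 to 8) or wild-type alleles alone (Ddx41+/+, 4 mice, replicates 1 to 4). Recipients of both genotypes were given tamoxifen at 1 mg per day in 2 rounds that each lasted 5 days, and the sort took place 8 weeks post-transplant. Ages were not given, and the labels name no gate that would separate donor cells from those left in the host. A Ddx41+/- library numbered 5 had been removed from the deposited table, for a reason that was not stated, and was not analysed here.

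Proteins of this family decide whether the outer membrane of the mitochondrion stays intact. Bax and Bak1 open it and release cytochrome c, Bcl2, Bcl2l1 (Bcl-xL) and Mcl1 hold them in check, and the BH3-only proteins (Bid, Bad, Bcl2l11 or Bim, Bmf and Bik) relay death signals by binding the survival proteins or by activating Bax and Bak1. In blood-forming cells, Mcl1 is required for the survival of stem cells, Bcl2 is prominent in lymphoid cells, and Bcl-xL protects late erythroid and megakaryocytic cells. Bax, Bbc3 and Pmaip1 are targets of p53, the transcription factor of the DNA damage response.

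The family is held together by the BH3 motif, the short helix through which its members bind each other. The coding sequence of this motif is shown for the 10 genes because it is the feature that all of them share. It was searched in the annotated coding sequences as a leucine codon, 3 further codons, a codon for glycine, alanine or serine, and an aspartate codon. Each of the 10 genes held 1 such position in its matching transcript models. The pattern is loose, as 34.2% of 19888 genes with a principal coding model held it at least once. The sequences below are 39 bases long, are read 5′ to 3′ on the coding strand of the mouse GRCm38 assembly and come from the GENCODE transcripts, with the leucine and the aspartate codon in capitals.
Bcl2: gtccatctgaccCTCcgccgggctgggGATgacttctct
Bcl2l1: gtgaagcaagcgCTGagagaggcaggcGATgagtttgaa
Mcl1: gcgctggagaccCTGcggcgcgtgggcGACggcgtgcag
Bax: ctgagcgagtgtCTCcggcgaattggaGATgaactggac
Bak1: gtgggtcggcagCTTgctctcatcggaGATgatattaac
Bid: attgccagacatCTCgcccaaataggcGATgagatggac
Bad: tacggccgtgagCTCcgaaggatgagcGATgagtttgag
Bcl2l11: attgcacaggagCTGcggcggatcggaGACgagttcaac
Bmf: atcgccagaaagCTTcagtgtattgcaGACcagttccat
Bik: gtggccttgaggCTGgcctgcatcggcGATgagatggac

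All of these stretches lie within a single coding exon. They are at chr1:106712575-106712613 for Bcl2, chr2:152829697-152829735 for Bcl2l1, chr3:95659424-95659462 for Mcl1, chr7:45465997-45466035 for Bax, chr17:27022531-27022569 for Bak1, chr6:120897289-120897327 for Bid, chr19:6950780-6950818 for Bad, chr2:128147138-128147176 for Bcl2l11, chr2:118545100-118545138 for Bmf and chr15:83543072-83543110 for Bik. Mcl1, Bad, Bcl2l11 and Bik are on the plus strand and the others on the minus strand. The position of the motif along the protein varied, with the leucine at residue 94 of 236 in Bcl2, 63 of 192 in Bax, 55 of 150 in Bik and 224 of 271 in Bmf. Counts were given per gene, so they do not show whether transcripts with or without these codons were read.

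Total counts per sample ranged from 32234499 to 43751290. Levels are given as CPM, counts per 1000000 of the library size after scaling by the trimmed mean of M values (TMM). The targeted gene Ddx41 had 97.9 ± 6.43 CPM (SD, n = 4) in Ddx41+/+ against 67.3 ± 2.63 CPM (SD, n = 3) in Ddx41+/- samples (log2 fold change -0.54, edgeR adjusted p = 0.0052). Markers of LSK cells were present, with Kit at 466.4 CPM and Ly6a (Sca1) at 20.9 CPM in Ddx41+/+ samples. The means of both differed little between genotypes (467.7 and 20.8 CPM in Ddx41+/-). Single samples of Ly6a were more spread in Ddx41+/-, at 18.5, 30.5 and 13.3 CPM, than in Ddx41+/+ (17.7 to 23.6 CPM). Of the 10 LSK and stem cell markers, 4 were lower without overlap in Ddx41+/-, where 5.21% of all genes were, and Gata2 passed the test (edgeR adjusted p = 0.0471). At an unadjusted p under 0.05, 7 were lower and 0 higher, where 4.93% of all genes were lower and 5.7% higher. The median log2 fold change of these markers was -0.36. The summed level of the 10 was 1729.0 to 1916.5 CPM in Ddx41+/+ and 1567.2 to 1714.0 CPM in Ddx41+/-. Transcripts of neutrophil marker genes were also detected. The 11 neutrophil markers found in the table summed to 763.8 to 1282.2 CPM in Ddx41+/+ and 1366.9 to 2337.4 CPM in Ddx41+/- samples. Of these, 8 were higher without overlap, where 4.85% of all genes were. Mmp9 passed the test among them (log2 fold change 1.57, edgeR adjusted p = 0.0068), and 10 of the 11 were higher at an unadjusted p under 0.05, where 5.7% of all genes were. The remaining marker, Cxcr2, had a lower mean in Ddx41+/- (9.22 CPM in Ddx41+/+ and 7.79 CPM in Ddx41+/-, edgeR adjusted p = 0.697). B-lineage markers summed to 96.5 to 194.6 CPM in 6 samples and to 425.7 CPM in Ddx41+/- replicate 7, of which Jchain, a gene of antibody-secreting cells, made up 346.1 CPM. Without Jchain the sums were 44.6 to 66.6 CPM in Ddx41+/+ and 58.6 to 81.3 CPM in Ddx41+/- samples, with replicate 7 inside the range of its group. Of the 10 B-lineage markers tested, 9 had a positive fold and 1 a negative one (median log2 fold change 0.59). At an unadjusted p under 0.05, 3 of them were higher. The 10 monocyte and macrophage markers summed to 432.3 to 506.6 CPM in Ddx41+/+ and 490.3 to 622.4 CPM in Ddx41+/-. Of 9 tested, 9 had a positive fold (median log2 fold change 0.29) and 3 were higher at an unadjusted p under 0.05. The 9 stroma and endothelium markers summed to 171.1 to 196.9 and 183.6 to 197.4 CPM, mostly from Pecam1 (147.3 and 146.9 CPM). In Ddx41+/- replicate 8, Col1a1 and Col1a2 were at 14.9 and 16.8 CPM, against at most 2.20 and 5.03 CPM in the other samples. The 9 erythroid markers in the table summed to 183.9 to 234.1 CPM in Ddx41+/+ and 243.3 to 258.4 CPM in Ddx41+/-, although 4 globin genes were listed at 0 in all samples. Most of this level came from Tfrc, at 152.6 CPM in Ddx41+/+ and 186.1 CPM in Ddx41+/-. Of the 5 erythroid markers tested, 1 was higher without overlap, and this was Tfrc. Among the 10 T and NK markers, which summed to 224.5 to 276.6 and 255.5 to 284.3 CPM, nearly all of the level came from Nkg7 (253.4 CPM in Ddx41+/+). In bulk samples, fewer cells of a type and less RNA per cell cannot be told apart, and the part of these markers in the results below was not tested.

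The first comparison asked whether transcripts of the survival members differed between genotypes. The Ddx41+/- means of Bcl2 and Mcl1 were 100.2% and 101.0% of the Ddx41+/+ means, and that of Bcl2l1 was 88.8%, a difference that did not pass the test. Bcl2, which encodes the founding member of the family, was at 135.9, 139.5, 143.2 and 118.8 CPM in Ddx41+/+ replicates 1 to 4 and at 133.2, 134.2 and 136.5 CPM in Ddx41+/- replicates 6 to 8. The Ddx41+/- samples lay inside the range of the Ddx41+/+ samples, whose lowest was replicate 4. The Ddx41+/- mean was 100.2% of the Ddx41+/+ mean (log2 fold change 0.0030, SE 0.070, edgeR adjusted p = 0.992), and the 95% interval of the fold ran from 0.904 to 1.11. Bcl2 spans chromosome 1, 106538178 to 106714274, and 558 bases of its exons are shared with a gene on the opposite strand that the count table does not list.

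Mcl1, a short-lived survival protein encoded on chromosome 3 (95658788 to 95663176), had the highest CPM of the 10 members. It was detected at 174.3, 185.0, 192.8 and 193.2 CPM in Ddx41+/+ and at 186.4, 187.4 and 190.6 CPM in Ddx41+/- samples. The Ddx41+/- samples again lay inside the Ddx41+/+ range. The log2 fold change was 0.014 (SE 0.060, edgeR adjusted p = 0.958), with an interval of the fold from 0.925 to 1.10. Bcl2l1 (chromosome 2, 152780668 to 152831728), which encodes the survival protein Bcl-xL, was at 36.8, 32.7, 34.97 and 32.6 CPM in Ddx41+/+ and at 28.7, 33.3 and 29.3 CPM in Ddx41+/- samples. Replicates 6 and 8 were below every Ddx41+/+ sample, whereas replicate 7 was above Ddx41+/+ replicates 2 and 4. The difference of the means did not pass the test (log2 fold change -0.17, SE 0.092, edgeR adjusted p = 0.534, unadjusted p = 0.0779). The interval of the fold ran from 0.776 to 1.02. With counts scaled by library totals only, the genotypes no longer overlapped, at 32.8 to 37.5 CPM in Ddx41+/+ and 28.4 to 32.6 CPM in Ddx41+/- samples. Without replicate 7 the unadjusted p was 0.0255 and the adjusted p 0.602.

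**Figure D1:**
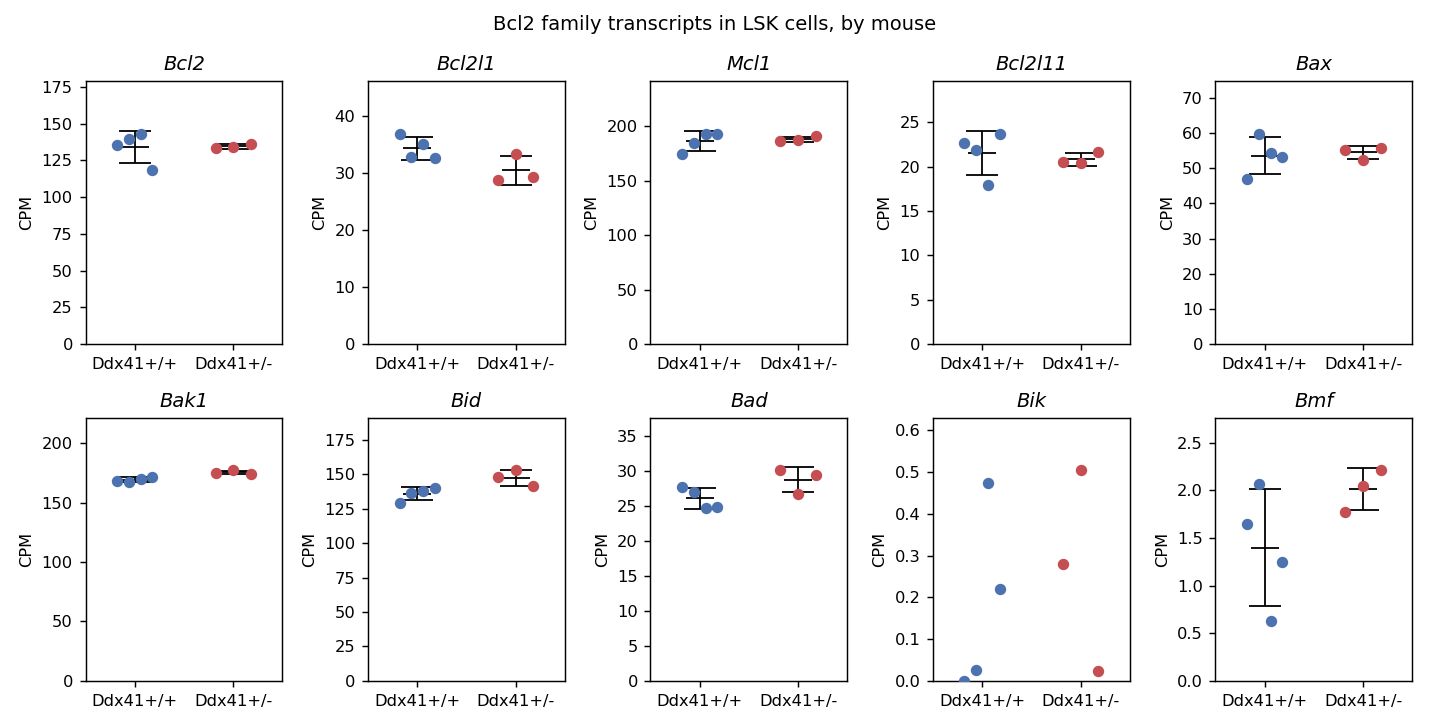
CPM of each Bcl2 family member by mouse, with 1 point per sample on a linear axis from 0. Bars give the mean and SD of 4 Ddx41+/+ and 3 Ddx41+/- samples (none are drawn for Bik, which had 0 to 17 counts per sample). Bak1 and Bid are the panels in which the genotypes do not overlap, with Bid at 129.2 to 140.1 CPM in Ddx41+/+ and 141.4 to 152.9 CPM in Ddx41+/-.

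The effectors Bax and Bak1, which form the pores in the outer membrane, were compared next. Bax (chromosome 7, 45461697 to 45466898) was at 47.0, 59.8, 54.3 and 53.3 CPM in Ddx41+/+ and at 55.2, 52.2 and 55.8 CPM in Ddx41+/- samples. The Ddx41+/+ samples covered the whole range of the Ddx41+/- samples, and no difference was detected (log2 fold change 0.023, SE 0.084, edgeR adjusted p = 0.9502). The interval of the fold ran from 0.898 to 1.15. A gene annotated on the same strand shares 192 exon bases with Bax and was not in the count table.

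Bak1 (chromosome 17, 27019810 to 27029009) was at 168.5, 167.2, 170.0 and 171.6 CPM in Ddx41+/+ and at 175.0, 177.2 and 174.1 CPM in Ddx41+/- samples. Every Ddx41+/- sample was above every Ddx41+/+ sample (exact two-sided permutation p = 0.0286, the smallest that 4 against 3 samples allow), yet the means differed by only 1.04-fold. The samples of a genotype were unusually close together, with a coefficient of variation of 1.12% in Ddx41+/+, while the median was 6.56% over 7709 genes with a mean of at least 20 CPM, of which 55 had a smaller one. In the fit over all genes, where the spread is shared between genes, the log2 fold change of 0.051 (SE 0.056) did not pass (edgeR adjusted p = 0.799). The separation also ended when counts were scaled by library totals only, with 167.0 to 174.1 CPM in Ddx41+/+ and 173.1 to 176.5 CPM in Ddx41+/-. On the opposite strand, 2 annotated models of Ggnbp1 share 177 and 437 exon bases with Bak1, but Ggnbp1 was at 2.49 ± 0.268 CPM (SD, n = 4) and 2.52 ± 0.166 CPM (SD, n = 3).

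The BH3-only members were compared to ask whether the initiators of cell death differed. Bid, which is cut by caspase 8 and links death receptors to mitochondria, was at 129.2, 136.4, 138.0 and 140.1 CPM in Ddx41+/+ and at 148.1, 152.9 and 141.4 CPM in Ddx41+/- samples. The lowest Ddx41+/- sample, replicate 8, was just above the highest Ddx41+/+ sample, and the genotypes did not overlap under any of the 4 scalings. The gap nearly closed with upper-quartile scaling, at 139.34 CPM for the highest Ddx41+/+ and 139.41 CPM for the lowest Ddx41+/- sample. The mean was 1.09-fold higher in Ddx41+/- (log2 fold change 0.12, SE 0.061), with an unadjusted p of 0.0737 and an edgeR adjusted p of 0.525. The interval of the fold ran from 0.991 to 1.19. Bid (chromosome 6, 120891930 to 120916853) shares 628 exon bases with Bcl2l13 on the opposite strand, a relative that was at 120.8 ± 3.89 CPM (SD, n = 4) in Ddx41+/+ against 123.6 ± 3.29 CPM (SD, n = 3) in Ddx41+/- samples. Of the marker lists, the neutrophil sum and the erythroid sum, which was mostly Tfrc, also separated the genotypes upward. The part of these lists in the Bid values was not tested.

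Bad, which binds Bcl2 and Bcl-xL unless it is phosphorylated, was at 27.8, 27.0, 24.8 and 24.9 CPM in Ddx41+/+ and at 30.1, 26.8 and 29.5 CPM in Ddx41+/- samples. Replicates 6 and 8 were above all Ddx41+/+ samples and replicate 7 was within their range, the same samples that stood apart for Bcl2l1 in the other direction. The log2 fold change was 0.14 (SE 0.093, edgeR adjusted p = 0.633). Bad (chromosome 19, 6941861 to 6951899) shares 524 exon bases with Gpr137 on the opposite strand, which was at 18.9 ± 2.14 CPM (SD, n = 4) and 18.2 ± 2.49 CPM (SD, n = 3). Bcl2l11, which encodes Bim, an activator that binds all survival proteins, was at 22.6, 21.8, 17.97 and 23.7 CPM in Ddx41+/+ and at 20.5, 20.3 and 21.7 CPM in Ddx41+/- samples. The Ddx41+/- samples lay inside the Ddx41+/+ range (log2 fold change -0.048, SE 0.11, edgeR adjusted p = 0.915). Bcl2l11 is encoded on chromosome 2 (128126038 to 128162547).

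Bmf and Bik were nearly silent. Bmf (chromosome 2, 118528757 to 118549687), whose product is released from the cytoskeleton upon loss of attachment, had 68, 80, 20 and 45 counts in Ddx41+/+ and 70, 69 and 98 counts in Ddx41+/- samples. These were 0.632 to 2.07 CPM and 1.78 to 2.21 CPM, and Ddx41+/+ replicates 1, 3 and 4 were below all Ddx41+/- samples, while replicate 2 was within their range. The log2 fold change of 0.52 (SE 0.39) did not pass (edgeR adjusted p = 0.683) and was 0.28 without Ddx41+/+ replicate 3. Bik (chromosome 15, 83526862 to 83544634), a BH3-only protein of the endoplasmic reticulum, had 0, 1, 15 and 8 counts in Ddx41+/+ and 11, 17 and 1 counts in Ddx41+/- samples. The 0 counts of Ddx41+/+ replicate 1 allow up to 0.0725 CPM (3 counts, counting error only), and samples with hardly any count were found in both genotypes. A difference in Bik was not detectable at this depth (edgeR adjusted p = 0.895, interval of the log2 fold change -1.76 to 2.94).

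Across the family, 0 of the 10 members had an edgeR BH-adjusted p under 0.05, where 0.217% of 13340 genes did (0.12% higher and 0.0975% lower in Ddx41+/-), and 0 of 10 had an unadjusted p under 0.05, where 10.6% of genes did (5.7% higher and 4.93% lower). limma-voom called 0 of 10 and DESeq2 0 of the 9 members to which it gave an adjusted p (Bik had none), with 0 of 10 at an unadjusted p under 0.05 in each. The fold had a positive sign in 8 members and a negative one in 2, where 6512 of 13340 genes were positive and 6828 negative. Of these 8, Bcl2, Mcl1, Bax and Bik changed sign in some alternative fits. The median log2 fold change of the 10 members was 0.037, beside -0.0048 over all genes tested. Bak1 and Bid, 2 of the 10, were higher in Ddx41+/- without overlap, where 4.85% of all genes were, and 0 were lower without overlap, where 5.21% were. The count was not tested, and 2 genes are too few to call it particular to the family. The precision of the comparison differed with the level. For 6 members, Bcl2, Mcl1, Bcl2l11, Bax, Bak1 and Bid, the 95% interval of the fold lay between 20% lower and 25% higher. Among the 8 members with a mean of at least 20 CPM this was 75%, and it was also 75% among the 7709 genes at that level. For Bcl2l1, Bad, Bmf and Bik larger changes remained within the interval.

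**Figure D2:**
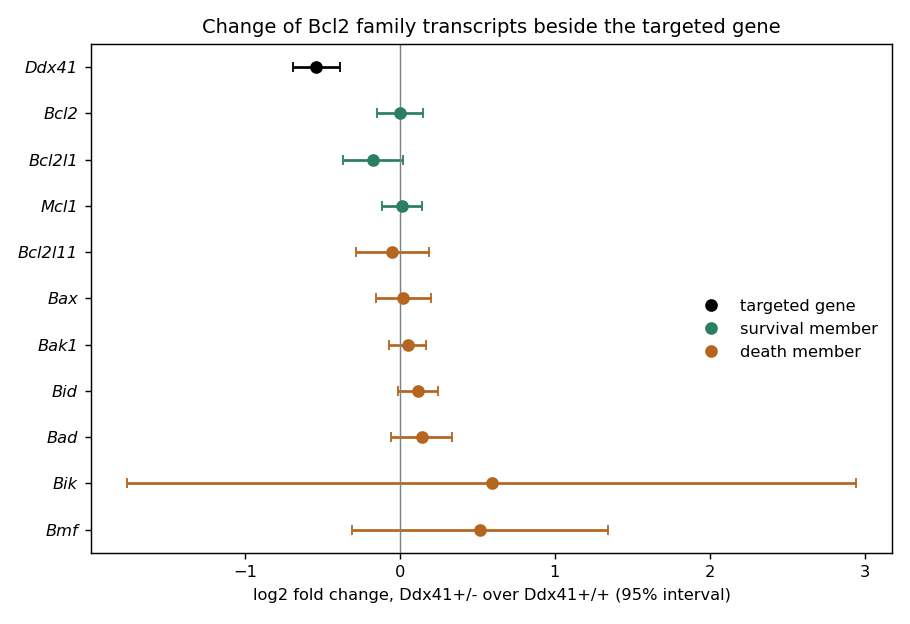
Log2 fold change of Ddx41+/- over Ddx41+/+ for Ddx41 and the 10 members, with 95% intervals from the edgeR fit over all genes. The interval of Ddx41 lies wholly below 0 (-0.69 to -0.39), while those of all 10 members include 0 and those of Bmf and Bik are wide.

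The levels of the members relative to each other were then compared per length, as CPM per kilobase (kb) of merged annotated exons. Bak1 was the highest member, at 70.4 ± 0.786 CPM per kb (SD, n = 4) in Ddx41+/+ LSK cells, followed by Mcl1 at 54.5 ± 2.59, Bid at 38.3 ± 1.33 and Bax at 34.0 ± 3.33 CPM per kb. Bcl2, with the longest merged exons of the family (9157 bases), was at 14.7 ± 1.18 CPM per kb. Bad was at 10.2 ± 0.591, Bcl2l1 at 7.48 ± 0.440 and Bcl2l11 at 2.68 ± 0.310 CPM per kb. Bmf was at 0.266 ± 0.117 and Bik at 0.113 ± 0.138 CPM per kb. Neighbours in this order did not overlap between Ddx41+/+ samples, except Bid with Bax (36.4 to 39.5 and 29.8 to 37.9 CPM per kb) and Bmf with Bik (0.120 to 0.394 and 0 to 0.298). Bid with Bax and Bmf with Bik did not overlap in Ddx41+/- samples, which had the same order of means, from 72.9 CPM per kb for Bak1 and 55.0 for Mcl1 to 0.383 for Bmf and 0.169 for Bik. With the longest annotated transcript as the length, Bid (56.3 CPM per kb) came before Mcl1 (54.5), so these neighbours depend on the gene model. In both genotypes the pore-forming Bak1 and the survival member Mcl1 were the leading transcripts of the family by this measure, and the sensors Bmf and Bik were the lowest.

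**Figure D3:**
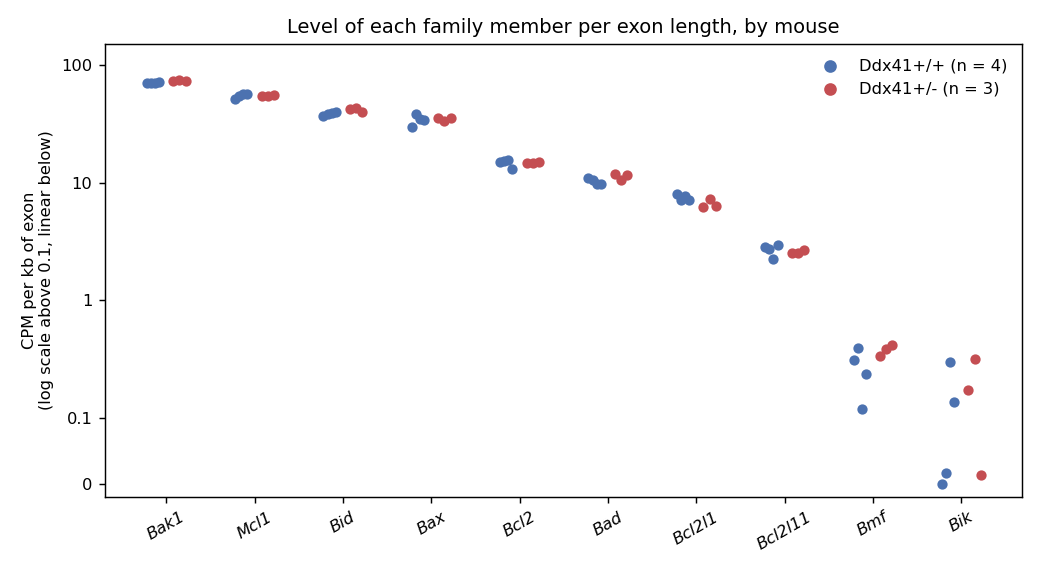
CPM per kb of merged exons for each member by mouse, ordered by the Ddx41+/+ mean, on an axis that is logarithmic above 0.1 and linear below. Members range from 70.4 CPM per kb for Bak1 to 0.113 for Bik in Ddx41+/+, and the points of both genotypes lie together at each level.

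The balance of survival and death transcripts was followed as ratios within each library, which do not depend on library scaling. They are given without a test, because they combine members that were chosen together. The 3 survival members summed to 354.96 ± 12.02 CPM (SD, n = 4) in Ddx41+/+ against 353.2 ± 4.31 CPM (SD, n = 3) in Ddx41+/- samples. The 7 death members summed to 396.7, 414.3, 406.2 and 415.0 CPM in Ddx41+/+ and to 431.1, 432.0 and 424.6 CPM in Ddx41+/- samples, without overlap and with a Ddx41+/- mean of 105.2% of the Ddx41+/+ mean. The other 5 death members, without Bak1 and Bid, summed to 98.1 to 110.7 CPM in Ddx41+/+ and 101.9 to 109.2 CPM in Ddx41+/- samples and overlapped, where Bak1 and Bid were left out because they had separated the genotypes. All 10 members together summed to 743.7 to 777.2 CPM and 779.4 to 786.9 CPM, also without overlap. Without Bak1 and Bid, the other 8 summed to 446.0 to 469.2 CPM in Ddx41+/+ and 456.2 to 465.6 CPM in Ddx41+/- samples and overlapped. Unlike the ratios, these CPM sums depend on the scaling, and they are given under TMM only. The survival sum over the death sum was 0.870 ± 0.0344 (SD, n = 4) in Ddx41+/+ against 0.823 ± 0.0158 (SD, n = 3) in Ddx41+/-, and the genotypes overlapped (0.830 to 0.914 and 0.808 to 0.839).

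Of 15 pairwise ratios of a survival to a death member with more than traces of expression, 3 did not overlap between genotypes, all of them lower in Ddx41+/-. The ratios share members and are not independent, and single genes did not overlap in 10.1% of cases. Of these, Bcl2l1 to Bid had the largest difference, with log2 ratios of -1.81, -2.06, -1.98 and -2.10 in Ddx41+/+ and -2.37, -2.20 and -2.27 in Ddx41+/- samples. On the linear scale there were 0.253 Bcl2l1 counts per Bid count in Ddx41+/+ and 0.206 in Ddx41+/- samples. Bcl2l1 to Bak1 had log2 ratios of -2.39 to -2.19 in Ddx41+/+ and -2.61 to -2.41 in Ddx41+/-. Mcl1 to Bid was at 0.43 to 0.48 and 0.29 to 0.43, where replicate 8 fell short of the lowest Ddx41+/+ sample by less than the rounding of these values. Ratios with Bcl2l11, Bax or Bad overlapped throughout, including Bcl2l1 to Bad, whose means differed most of all 15 (log2 ratios of 0.39 ± 0.090 in Ddx41+/+ and 0.079 ± 0.21 in Ddx41+/-). Bcl2 to Bax, a ratio often quoted for apoptotic sensitivity, was 2.52 in Ddx41+/+ and 2.48 in Ddx41+/-, as counts per count, with log2 ratios of 1.33 ± 0.17 (SD, n = 4) and 1.31 ± 0.048 (SD, n = 3). Mcl1 to Bcl2l11 was 8.77 and 9.04.

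**Figure D4:**
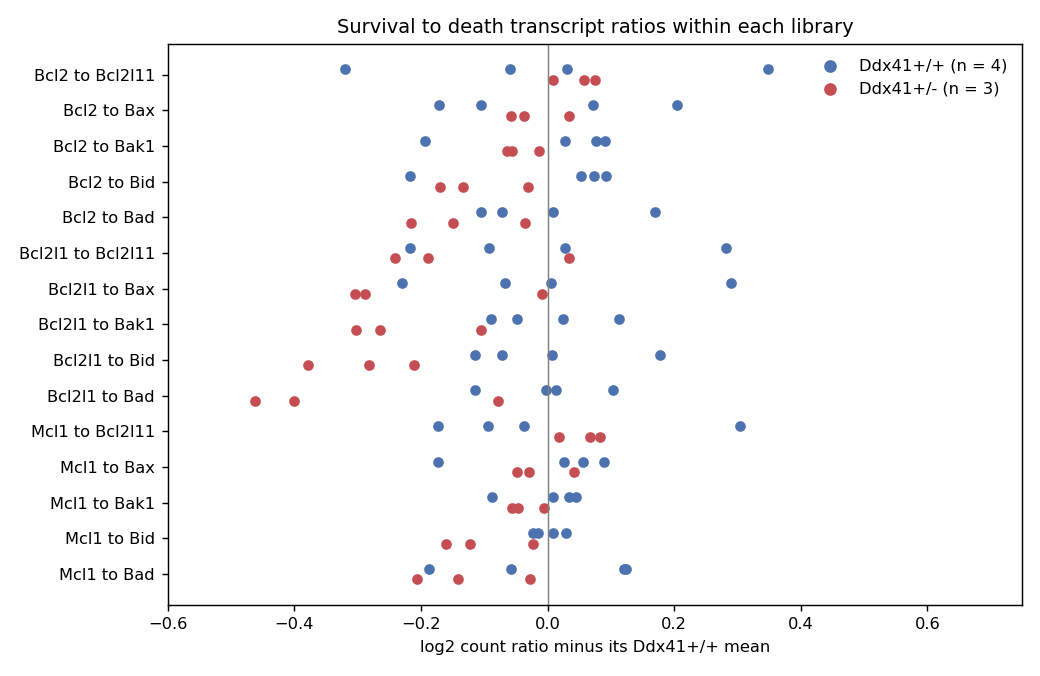
Log2 count ratios of survival to death members in each library, drawn as the difference from the mean of the 4 Ddx41+/+ samples for each ratio. The Ddx41+/- points of Bcl2l1 to Bid and Bcl2l1 to Bak1 lie to the left of all Ddx41+/+ points, and those of Bcl2 to Bax lie among them.

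The other genes of the pathway were examined with the same fit. Over all genes tested, 5.7% were higher and 4.93% lower at an unadjusted p under 0.05. Of 17 further Bcl2 family genes, 13 were tested and 0 passed with edgeR, also at an unadjusted p under 0.05 (median log2 fold change 0.028). Bbc3 (Puma) and Pmaip1 (Noxa), BH3-only genes induced by p53, were at 4.86 ± 1.07 and 5.33 ± 1.52 CPM (SD, n = 4) in Ddx41+/+ against 5.54 ± 0.836 and 6.07 ± 1.28 CPM (SD, n = 3) in Ddx41+/-, and neither passed (edgeR adjusted p = 0.817 and 0.829). The smallest p in this list belonged to Bcl2l12 (log2 fold change -0.14, edgeR adjusted p = 0.648) and Bcl2l15, which had 0 to 21 counts per sample. Bcl2l2, another survival gene, was at 26.7 ± 1.09 and 28.4 ± 0.451 CPM (edgeR adjusted p = 0.783). The Bcl2a1 genes are near-identical copies whose reads cannot be assigned with certainty, and Bcl2a1b, the highest, was at 1.59 and 1.47 CPM. Bcl2l10 and Hrk had 0 counts in all samples.

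In the apoptosome and caspase list of 14 genes, 0 passed with edgeR (median log2 fold change -0.040). At an unadjusted p under 0.05, 2 were lower, where 4.93% of all genes were. These were Casp9, the initiator caspase of the apoptosome, at 34.2 ± 1.59 CPM (SD, n = 4) in Ddx41+/+ against 28.6 ± 2.23 CPM (SD, n = 3) in Ddx41+/- (edgeR adjusted p = 0.322), and Casp2 at 151.6 ± 5.97 and 137.8 ± 3.59 CPM (edgeR adjusted p = 0.434). Both were lower without overlap, where 5.21% of all genes were, and these counts were not tested. Cytochrome c (Cycs), which Bax and Bak1 release, had a log2 fold change of 0.14 (edgeR adjusted p = 0.503). Among 8 tested inhibitors of apoptosis, which block caspases or belong to the same protein family, 0 passed and 1 had an unadjusted p under 0.05 (median 0.029). This was Naip2 (50.0 ± 2.52 and 60.8 ± 4.86 CPM, edgeR adjusted p = 0.192), whose near copies could share reads with it, and Birc6 was next (edgeR adjusted p = 0.627).

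The 11 genes listed as outer membrane partners include some of other membranes. Of these 11, 0 passed and 0 had an unadjusted p under 0.05 (median -0.033). Opa1 and Dnm1l, factors of mitochondrial fusion and fission, had the smallest p (edgeR adjusted p = 0.481 and 0.525). Opa1 was higher without overlap and Tomm20 lower, where 4.85% and 5.21% of all genes were. Of 8 tested death receptor genes, 0 passed and 0 had an unadjusted p under 0.05 (median -0.13), with Tnfrsf10b and Tradd first (0.583 and 0.614). Among 19 tested regulators of the members, 0 passed, while 2 had a higher and 3 a lower level at an unadjusted p under 0.05 (median -0.038). The smallest p values belonged to Pim2 and Pim1, kinases that phosphorylate Bad. Pim2 was at 22.8 ± 2.82 CPM (SD, n = 4) in Ddx41+/+ against 15.9 ± 2.32 CPM (SD, n = 3) in Ddx41+/- samples (log2 fold change -0.52, edgeR adjusted p = 0.124). Pim1 was at 232.4 ± 20.8 and 189.5 ± 21.2 CPM (log2 fold change -0.29, edgeR adjusted p = 0.203). Both were lower in every Ddx41+/- sample than in any Ddx41+/+ sample. So were Dynll2, Akt2 and Mapk9, making 5 of the 19 regulators, where 5.21% of all genes were lower without overlap.

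Stress programs that can act on the family were set beside it. Of 17 p53 targets, a list that includes Bax, Bbc3 and Pmaip1, 0 passed with edgeR and 2 had an unadjusted p under 0.05, Ccng1 (64.4 ± 4.55 and 74.6 ± 4.003 CPM, edgeR adjusted p = 0.322) and Tigar (22.7 ± 2.67 and 27.1 ± 1.41 CPM, edgeR adjusted p = 0.404). The median log2 fold change of this list was 0.023. Of 16 tested immediate-early genes, 0 passed, and 4 were higher and 1 lower at an unadjusted p under 0.05, with a median of 0.48. The smallest p values were those of Dusp2, which was lower (edgeR adjusted p = 0.300), and Btg2 (0.320). The fold had a positive sign in 13 of these genes and a negative one in 3. Fosb and Fos had the largest log2 fold changes (1.80 and 1.34, edgeR adjusted p = 0.558 and 0.460), and both overlapped between genotypes. For Fos, Ddx41+/+ replicate 4 (190.4 CPM) was above Ddx41+/- replicate 6 (158.2 CPM). The summed level of the list was 923.4 to 1567.5 CPM in Ddx41+/+ and 1246.7 to 1904.7 CPM in Ddx41+/- samples. Of 6 tested heat-shock genes, 0 passed and 3 had an unadjusted p under 0.05 (median 0.22), with Hsph1 and Hspa8 first (edgeR adjusted p = 0.318 and 0.336).

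**Figure D5:**
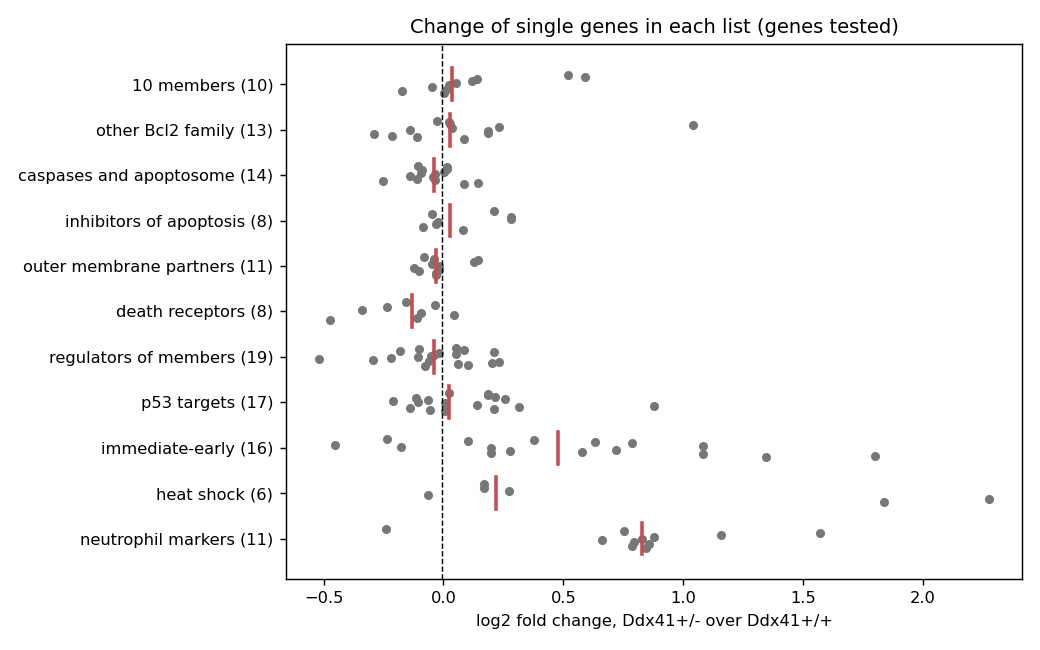
Log2 fold change of Ddx41+/- over Ddx41+/+ for single genes of each list, with the number of genes tested in brackets. Red bars give the median of each list and the dashed line the median of all genes tested (-0.0048), near which the Bcl2 family, caspases and p53 targets lie, while neutrophil markers have a median of 0.83.

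Genes whose pattern over the 7 samples was most like that of a member were looked up among 8842 others with a mean of at least 10 CPM. For Mcl1 these were Ddx18 and Tspan33 (Pearson's r = 0.983 and 0.979), for Bcl2 Zfp945 and Brca1 (0.981 and 0.941), for Bcl2l11 Tagap1 (0.957), and for Bax Casp4 and Nit2 (0.934 and 0.925). The values are given as a description with no p, since the highest of 8842 correlations over 7 samples is large by selection.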

How the data were processed

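RNA-seq of sorted LSK cells from 7 mice was analysed. The table that the authors deposited holds raw counts for each gene symbol, without normalization. Per the labels, the processing notes name FastQC 0.11.7, HISAT2 2.0.5, featureCounts 1.5.2 and build mm10. The strand setting and the handling of shared reads are not given in the sources used here, and labels and methods name different library kits, so reads of overlapping genes on opposite strands could not be told apart. Genotypes came from the sample titles, and 0 sample columns were left unused.

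The quasi-likelihood test was run in edgeR 4.0.16 (R 4.3.3, TMM, filterByExpr, robust fit) with Benjamini-Hochberg (BH) adjustment over 13340 genes and a threshold of 0.05. Standard errors were obtained by dividing the log2 fold change by the root of the F statistic, and 95% intervals from the degrees of freedom. Log2 CPM for correlations used a prior count of 2. The biological coefficient of variation was 12.9%, and each of the 21 pairs of samples had a chi-square of 13.7 or more per degree of freedom, so no library was a copy of another. Single values were compared over the 35 splits of 7 samples. Positions and lengths were taken from GENCODE M21 (GRCm38, the assembly of mm10). Alternatives were other scalings and filters, DESeq2 1.42.0, limma 3.58.1 (voom with quality weights), a non-robust fit and leaving out samples.

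The members and gene lists were chosen with earlier results of these data known. Named genes were the 10 members, Ddx41, the 2 genes with the smallest p of each pathway or stress list (all that passed, where any did), and the 2 genes most correlated with Bcl2, Mcl1, Bcl2l11 and Bax, without predicted genes and pseudogenes. Some genes that met this rule are not reported here. Other list genes were named after their values were seen.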

Additional observations from a re-analysis of the deposited data

Results flagged for a closer look

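The check for a sample far from the others covered 26 values in the 4 Ddx41+/+ samples, namely the CPM of Ddx41 and the 10 members and 15 ratios. It found 1, where chance gives 1.3. The log2 ratio of Bcl2 to Bid was -0.24 in Ddx41+/+ replicate 4 and 0.072, 0.033 and 0.054 in replicates 1 to 3 (Dixon's ratio 0.874). Bcl2 had its lowest value (118.8 CPM) and Bid its highest value among Ddx41+/+ samples (140.1 CPM) in that sample.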

How the results depend on the processing

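No paired analysis was possible because the genotypes share no replicate number. The number of members called was 0 in the main test and in all 16 alternative fits. Bcl2l1, Bak1, Bid, Bad and Bmf kept their sign in all 16 fits. The sign of members near 0 did not hold. Bcl2 had a log2 fold change of -0.0054 with upper-quartile scaling, -0.011 with library totals and -0.049 without Ddx41+/+ replicate 4 and Ddx41+/- replicate 7 together (a choice made after seeing the data), and -0.051 to 0.035 over the fits without 1 sample. Bax was at -0.0096 with limma-voom and at -0.035 to 0.083 without 1 sample, Mcl1 at -0.017 to 0.032, and Bcl2l11 at -0.12 to 0.00087. Without both samples named above, Bcl2l11 was at 0.017 and Bik at -0.081, and without 1 sample Bik was at -0.22 to 1.15. Bik could not be fitted with the stricter filter or in 1 of the fits without 1 sample, as it was not kept. The number of genes called over the table (29) was 15 with library totals, 91 with no filter, 164 with DESeq2, 14 with a non-robust fit, 7 (without Ddx41+/+ replicate 2) to 41 without 1 sample, 1 without both samples and 1418 at an unadjusted p under 0.05. Ddx41 lost its call without both samples (-0.47, adjusted p = 0.0656). No scaling moved the median of all genes by over 0.1. The levels per kb of Bcl2 (18.7), Bcl2l1 (13.4), Bcl2l11 (4.27), Bax (48.7), Bid (56.3) and Bad (17.0) rose with the longest transcript as the length. Depth limits Bik, with 0 to 17 counts per sample.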
